A study of Citrus unshiu with 2 samples.

Results

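The genes described here are 2864 genes of Citrus unshiu, the satsuma mandarin, with little methylation in their exons and a CHG-methylated promoter. They make up 9.85% of the 29073 genes listed in both libraries of the series. The light drought library came from shoots (mature stems) of trees whose soil was left to dry to around 15% moisture, in a treatment of 75 days. The normal water library came from shoots of the control trees. Each condition has 1 library of whole-genome bisulfite sequencing, and 20 trees were chosen for each condition. The sources used here do not say how many trees went into a library. Members were chosen on levels averaged over both libraries. CG and CHG had to be under 5% in exons, CHG under 20% in introns and CG under 20% in the 3' UTR. In the promoter CHG had to be at least 20% and above CHH. These values therefore describe the choice and support nothing.

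Plants methylate cytosines in 3 contexts, CG, CHG and CHH, with H standing for A, C or T. CHG methylation is kept by chromomethylases, which bind histone H3 methylated at lysine 9, and in Arabidopsis it marks mainly transposons and other silenced repeats. CHH methylation is renewed after each replication, by RNA-directed DNA methylation at short elements and at the edges of long ones, and by CMT2 inside long elements. CG methylation is copied by MET1 and also occurs alone in the bodies of many expressed genes. A promoter with CHG next to an exon without it is the arrangement often seen where a repeat lies upstream of a gene. Neither repeats nor transcripts were measured here.

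The exons of the members stood near 0 in every context. Over the 2864 genes, exon CG averaged 0.694% in the light drought library and 0.443% in the normal water library, and the 5% limit had chosen those values. Features without a limit of their own in the rule were also low for most members. The 5' UTR CG level was listed at 0 in both libraries in 91.4% of them, which may include missing data. The 5' UTR averaged 1.25% in light drought shoots and 1.11% in normal water shoots in CG, and the gene body in CHH averaged 0.765% (light drought) and 0.655% (normal water). The level was at least 20% in intron CG in 87 members, in 5' UTR CG in 49 and in exon CHH in 3. In 70 members, or 2.44%, the gene-body level reached 20% in some context, against 58.8% of all genes. The gene body takes in the exons, introns and 3' UTR that the rule limits, so this contrast was largely set by the choice. For those 70 members the label of an unmethylated body does not hold.

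Examples show where the body stayed methylated outside the limits. Cs3g11000 had an intron CG level of 81.3% in light drought shoots and 68.6% in normal water shoots, with exon CG listed at 0 in both libraries. Cs5g14570 had a 5' UTR CHG level of 87.8% in light drought shoots and 71.9% in normal water shoots. Both keep a heavily methylated transcribed feature that the rule does not read. The 3 members with the most exon CHH were Cs8g15280, Cs5g17130 and Cs2g16330. Cs8g15280 had 68.6% exon CHH in light drought shoots and 53.3% in normal water shoots, with exon CG and CHG at 0. Cs5g17130 had 60% (light drought) and 33.3% (normal water). Cs2g16330 was listed at 0 in light drought shoots and at 80.0% in normal water shoots, so the libraries do not agree for it.

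A level of 0 can also stand where no cytosine of the feature was covered or where the feature is missing, and the tables give no coverage. Exons were listed at 0 for all cytosines in both libraries in 1025 members, or 35.8%. The share was 8.41% over all genes and 20.1% over the 5901 genes with the same body limits and a CHG promoter level under 20%. In 890 members the whole gene body was listed at 0. For these genes unmethylated exons and exons without data cannot be told apart. The other 1839 members had an exon level above 0 for all cytosines in at least 1 library, and the exon CHH level among them had a median of 0.21% in light drought shoots and 0.15% in normal water shoots. These are called members with exons above 0 and members with exons at 0, a division made after the values were seen.

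**Figure D1:**
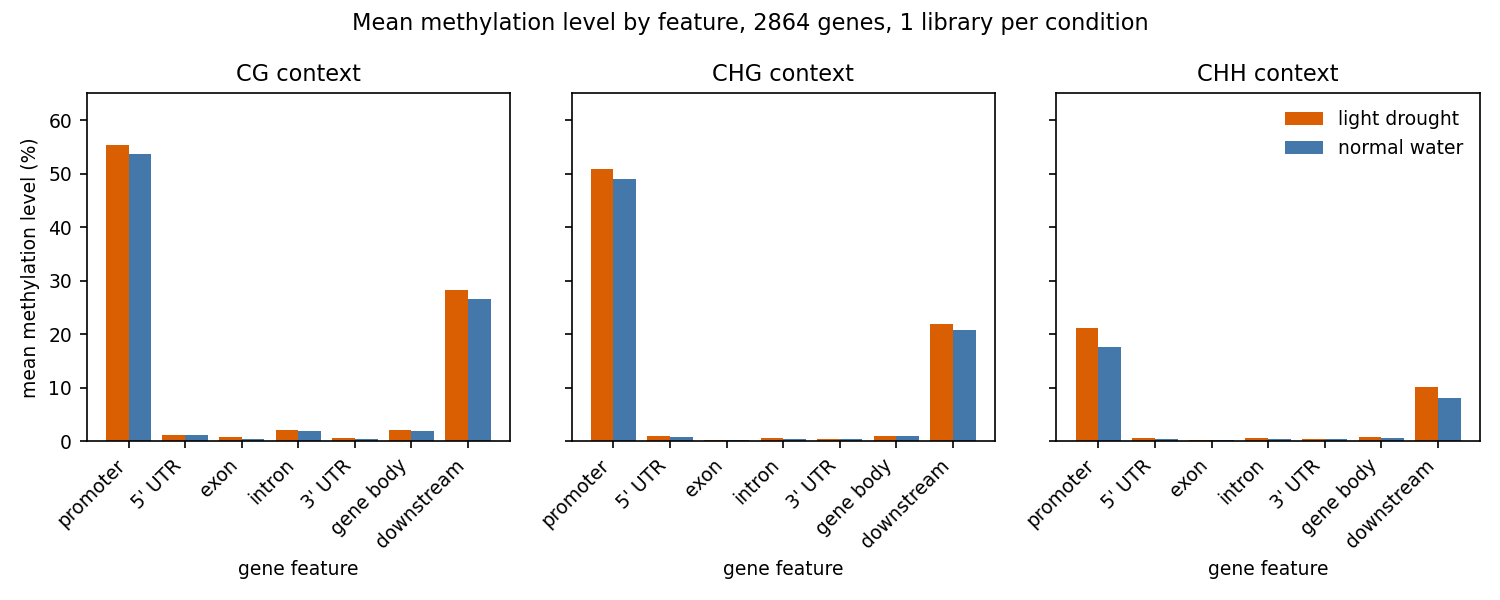
Mean methylation level in percent (bars, over 2864 genes) of 7 gene features in each sequence context, light drought left of normal water in each pair. Promoters stand at 55.4% (light drought) and 53.8% (normal water) in CG, every feature from 5' UTR to gene body stays at or under 2.13%, and downstream flanks stand at 28.3% (light drought) and 26.7% (normal water) in CG.

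Promoters of the members carried all 3 contexts. The CG level was not part of the rule and averaged 55.4% in light drought shoots (SD 26.6 over genes) and 53.8% in normal water shoots (SD 27.4). CHG averaged 51.0% (light drought) and 49.0% (normal water), and CHH averaged 21.1% (light drought) and 17.6% (normal water). The middle range, from the 25th to the 75th percentile of genes, ran from 35.2 to 78.5% for CG and from 11.5 to 28.5% for CHH in the light drought library. In the normal water library it ran from 32.3 to 78.3% and from 9.04 to 23.6%. In 635 members, or 22.2%, CG averaged at least 80%, and in 1154, or 40.3%, CHH averaged at least 20%. The shares were 13.4% and 22.3% over all genes. They were higher than in the members, at 35.2% and 46.1%, over genes that met the promoter conditions but not the body limits.

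The order of the contexts varied among the members. In 1868 of them, or 65.2%, CG was at least as high as CHG and both were above CHH. In 760 CHG was above CG and CG at least as high as CHH. In 236 CG was the lowest of the 3, with a mean CG level of 15.0% in light drought shoots and 13.8% in normal water shoots beside a CHG level of 43.4% (light drought) and 41.6% (normal water). CHG exceeded CG in 34.8% of members, against 30.7% of the 8188 genes that met the promoter conditions but not the body limits. CG was listed at 0 in both libraries in 60 members, of which 47 also had exons at 0. Cs1g13500, one of the few with exons above 0, had a CG promoter level of 0 in both libraries with CHG at 69.1% in light drought shoots and 53.5% in normal water shoots. Of the others taken by the rule of lowest CG, Cs1g09000 had 83.9% (light drought) and 87.8% (normal water) CHG, and Cs1g05380 had 71.1% in light drought shoots and 0 in normal water shoots.

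**Figure D2:**
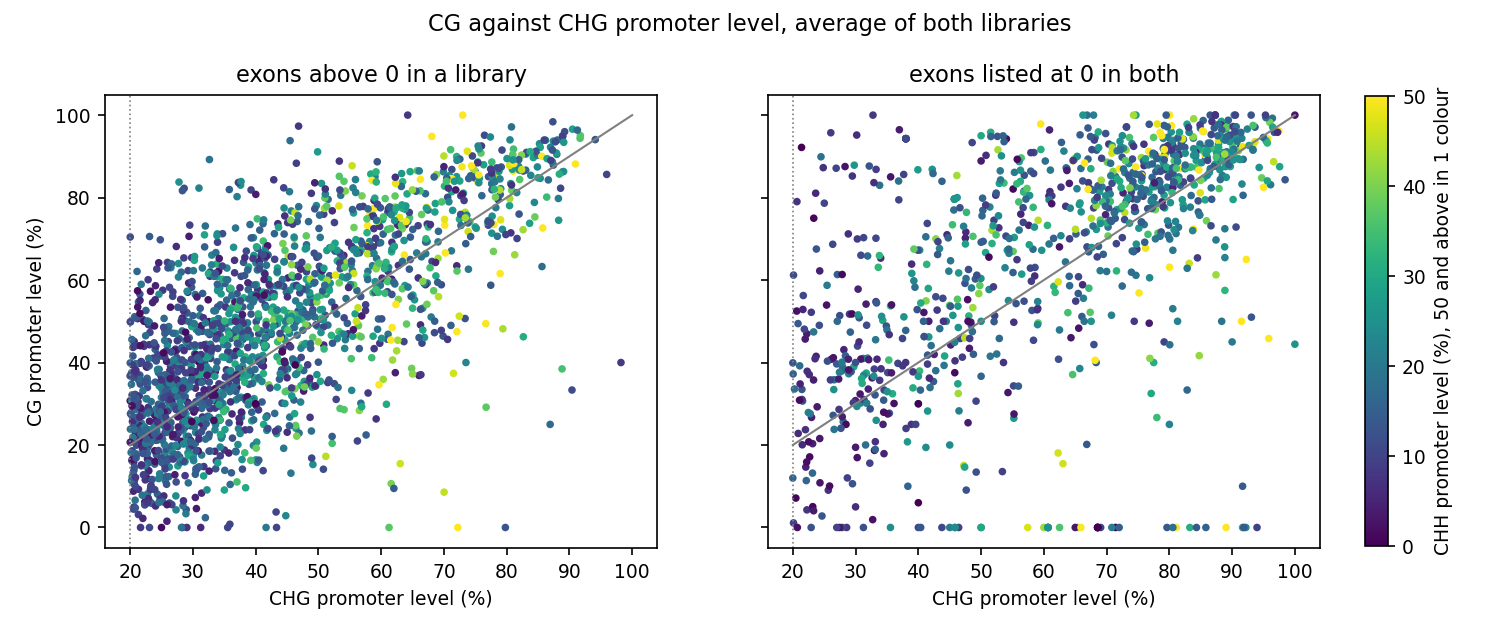
Each point is 1 gene, with its CHG promoter level (horizontal, percent) and CG promoter level (vertical, percent) averaged over both libraries, coloured by the CHH level, with members that have exons above 0 on the left and those with exons at 0 on the right. The dotted line is the 20% limit of the rule and the solid line marks equal levels; points on the lower edge are the 60 genes with CG listed at 0.

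Levels at the upper end came mostly from genes with exons at 0. The 3 highest CHG promoters, Cs4g11055, Cs8g11780 and orange1.1t05455, all had exons listed at 0. Cs4g11055 stood at 100% CHG in both libraries, with CHH at 4.69% in light drought shoots and 0 in normal water shoots. Cs8g11780 was also at 100% CHG in both, but its CG was 0 in light drought shoots and 88.9% in normal water shoots. Of the 350 members with an average CHG level of at least 80%, 262 had exons at 0, against 223 of the 1166 members between 20 and 40%. Cs2g30110 is a high promoter with exons above 0, chosen after its values were seen. Its CHG level was 94.7% in light drought shoots and 93.5% in normal water shoots, and its CG level was 96.1% (light drought) and 92.1% (normal water).

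Some members near the limits of the rule stood on different sides of them in the 2 libraries. Just inside the CHG limit, orange1.1t01846 had 27.5% in light drought shoots and 12.5% in normal water shoots, orange1.1t05982 had 20.0% in both, and Cs6g01020 had 8.0% (light drought) and 32.0% (normal water). Just outside, orange1.1t04180 had 11.4% (light drought) and 28.5% (normal water), Cs9g04500 had 20.2% (light drought) and 19.7% (normal water), and Cs3g21500 had 24.0% (light drought) and 15.9% (normal water). There were 80 members within 1 point above the limit and 61 genes within 1 point below it. The excess of CHG over CHH was under 1 point in 21 members, and it was smallest in Cs8g04610, Cs7g16250 and Cs3g23760. Cs8g04610 had 30.02% CHG and 31.1% CHH in light drought shoots, and 28.6% CHG and 27.3% CHH in normal water shoots. The rule held in each library on its own for 2288 members, or 79.9%. It held only in light drought shoots in 283, only in normal water shoots in 272 and only for the average in 21.

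Contexts were related over members, as a description of 2864 genes that are not replicates and whose contexts share the same reads. CG and CHG promoter levels had a Pearson r of 0.695, CHG and CHH 0.383 and CG and CHH 0.258. Promoter and downstream levels of the same gene had r of 0.155 in CHG and 0.0432 in CHH. Between the libraries, promoter CG had an r of 0.838, CHG of 0.757 and CHH of 0.858. Over the 1839 members with exons above 0 these were 0.886, 0.831 and 0.904.

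Promoter methylation was higher in light drought shoots in all 3 contexts, by the most points in CHH. In DNA from whole shoots, a changed mix of cell types and a change within cells cannot be told apart. The CHH difference averaged 3.53 points (SD 6.71 over genes), and CHH was higher in 2271 members and lower in 579, or 79.3% and 20.2%. These shares were 69.6% and 23.1% over all genes. Over the 8188 genes that met the promoter conditions but not the body limits they were 82.4% and 17.4%. CHG was higher by 1.94 points (SD 15.9) and CG by 1.63 points (SD 15.4). Over all genes the means were 2.40 points in CHH, 1.37 in CHG and 1.41 in CG, so the CG means differed by little. Medians over members were 2.94 points in CHH, 2.12 in CHG and 1.43 in CG. Over all genes they were 0.95, 0.16 and 0.25 points, and over genes above 0 in both libraries they were 1.49, 1 and 1.09 points. The rule asks for methylated promoters, and these figures are not called particular to the members. Each condition has 1 library, so there is no replicate spread and no test of any difference.

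The difference was larger and less scattered among members with exons above 0. Over these 1839 genes CHH stood at 20.9% in light drought shoots and 16.9% in normal water shoots, 3.98 points higher (SD 5.27), with 84.2% of genes higher. CHG stood at 45.2% (light drought) and 41.9% (normal water), 3.31 points higher (SD 11.1). CG stood at 49.5% (light drought) and 46.9% (normal water), 2.59 points higher (SD 11.1). Over the 1025 members with exons at 0, CHH stood at 21.4% in light drought shoots and 18.7% in normal water shoots, 2.72 points higher (SD 8.66). Their CHG differed by -0.53 points (SD 21.9) and their CG by -0.10 points (SD 20.9). The medians of these last were 0.49 points in CHG, against the sign of the mean, and 0 in CG. The mean CG and CHG differences of the whole group thus come from the genes with exons above 0. The tables give no depth, so its part in this was not tested.

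**Figure D3:**
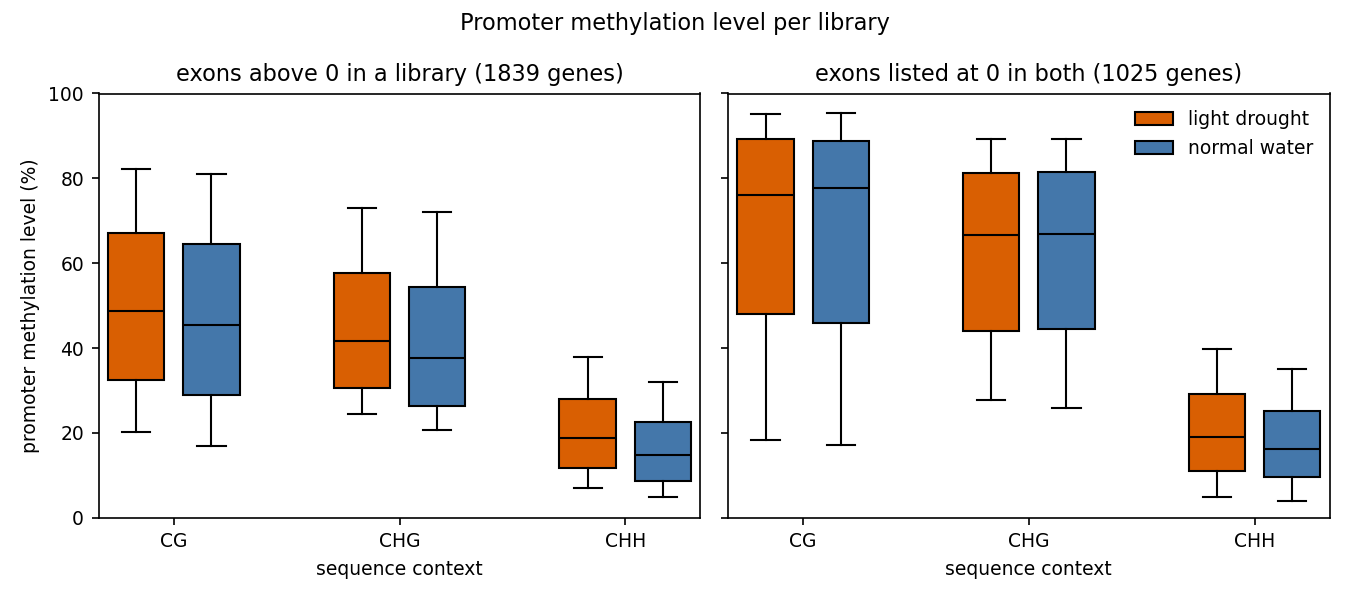
Promoter methylation level in percent by context, for the 1839 members with exons above 0 (left) and the 1025 with exons at 0 (right), light drought left of normal water. Lines are medians, boxes span the 25th to 75th percentiles of genes and whiskers the 10th to 90th; all 3 light drought medians are above normal water on the left, while on the right the CG medians are 76.1% (light drought) and 77.7% (normal water).

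The signs of the 3 contexts combined in several ways. All 3 were higher in light drought shoots in 1112 members, or 38.8%, and all 3 were lower in 220. CHH was higher while both CG and CHG were lower in 372, and while only CG was lower in 412. Among members with exons above 0, all 3 were higher in 846, or 46.0%, and all 3 lower in 117. These combinations were not counted over all genes, so none is called particular to the members. Taken singly, CG was higher in 58.4% of members, CHG in 62.9% and CHH in 79.3%. The shares over all genes were 52.3%, 52.2% and 69.6%. Both libraries had equal promoter levels, mostly 0, in 3873 of all genes in CG, 4497 in CHG and 2113 in CHH. Among members this was so in 83, 11 and 14. The lower shares were also larger in members in CG and CHG, at 38.7% and 36.7% against 34.4% and 32.4%. The higher shares of the members are therefore not read as a stronger tendency to be higher. Differences in CG and CHG had a Pearson r of 0.419 over members, CHG and CHH 0.361 and CG and CHH 0.262.

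The CHG level of the promoter went with the size of the CG and CHG differences in the members with exons above 0. Among members with exons above 0, CHG between 20 and 40% (943 genes) stood at 31.1% in light drought shoots and 27.3% in normal water shoots, a difference of 3.77 points. Between 40 and 60% (525 genes) the difference was 3.63 points, between 60 and 80% (283 genes) 2.23 points, and from 80% (88 genes) 0.03 points. CG followed the same order, at 2.99, 2.70, 1.59 and 0.87 points. CHH did not, at 3.60, 4.28, 4.44 and 4.77 points. The largest CHH value, for CHG from 80%, came from levels of 27.8% in light drought shoots and 23.0% in normal water shoots, with 88.6% of genes higher. Over all members the CHH differences were 3.42, 3.98, 3.73 and 2.60 points, and over members with exons at 0 they were 2.63, 3.28, 3.09 and 1.88 points, so in both the value from 80% was the smallest. The CHG differences of members with exons at 0 were 2.02, -3.35, -0.36 and -0.47 points, without the order seen in members with exons above 0. The grouping by CHG level uses the CHG values compared.

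The same grouping of the 8188 genes that failed the body limits was made for comparison. Their CHH promoter differences were 3.94, 4.41, 3.63 and 2.91 points in the same order of CHG level, and their CHG differences 3.35, 2.53, 1.46 and 0.17 points. Over the whole set they were 3.74 points higher in CHH, at 22.6% in light drought shoots and 18.8% in normal water shoots. The 223 genes with the same body limits and at least 20% promoter CHG, but with promoter CHH at least as high, differed by 6.87 points in CHH, at 41.1% (light drought) and 34.2% (normal water). The 5901 with a low CHG promoter differed by 1.24 points, at 4.85% (light drought) and 3.60% (normal water). No difference between these sets was tested, and none is called particular to the members.

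**Figure D4:**
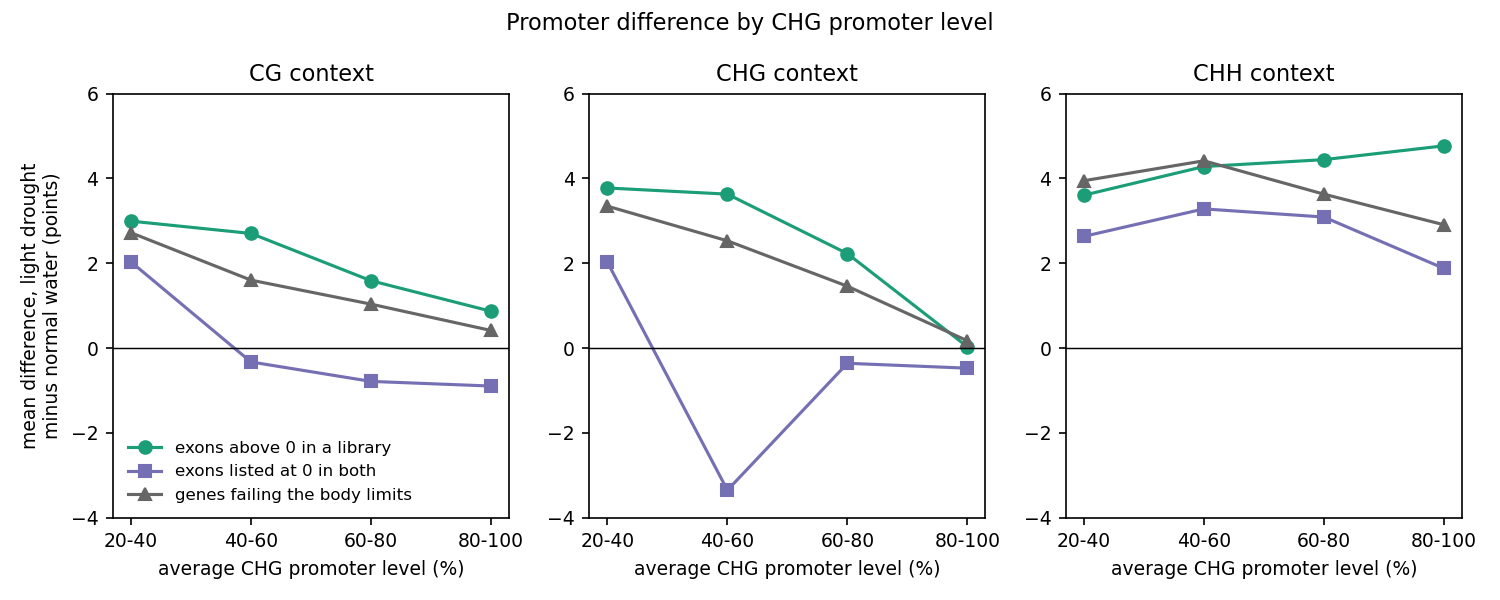
Mean promoter difference, in percentage points (light drought less normal water), against the average CHG promoter level in percent, for members with exons above 0, members with exons at 0 and genes failing the body limits. In CHG the members with exons above 0 run from 3.77 down to 0.03 points, while the lowest point is -3.35 for 225 members with exons at 0 between 40 and 60%.

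How much CHH a promoter held relative to CHG also varied. The median ratio of CHH to CHG over members was 0.375. Where the ratio was under 0.25 (856 members), CHH stood at 9.997% in light drought shoots and 8.54% in normal water shoots, a difference of 1.46 points. Between 0.25 and 0.5 (1013 members) the difference was 3.65 points, between 0.5 and 0.75 (654) 5.22 points and from 0.75 (341) 5.13 points. In the last group CHH stood at 34.4% (light drought) and 29.3% (normal water). The ratio is made from the CHH values compared. CHH in normal water shoots also rose over the groups, at 8.54%, 16.9%, 24.4% and 29.3%, so the differences in points cannot be read apart from the level.

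Promoters were counted past a fixed size, which was 20 points for CG and for CHG and 10 points for CHH. In CHH 298 members were higher in light drought shoots and 49 lower, or 10.4% and 1.71%, against a background of 6.36% and 0.729% of all genes. In CHG 138 were higher and 107 lower, or 4.82% and 3.74%, against 2.08% and 1.2%. In CG 135 were higher and 102 lower, or 4.71% and 3.56%, against 2.63% and 1.65%. The rule reads the average, so it also takes in genes that reach 20% CHG only through the library where they are high, and these counts are partly set by it. Over the 2288 members that met the rule in each library, 54 were higher and 37 lower in CHG (2.36% and 1.62%), 83 and 60 in CG (3.63% and 2.62%), and 193 and 28 in CHH (8.44% and 1.22%). The CHG shares of those genes were near the background. However, a minimum of 20% CHG in each library itself leaves out promoters that are near 0 in either. The background carries no such limit, so nothing is concluded from this closeness. Those with exons at 0 made up 78 of the 107 lower CHG promoters, 67 of the 102 lower CG promoters and 38 of the 49 lower CHH promoters. Among members with exons above 0 the counts were 168 higher and 11 lower in CHH, 69 and 29 in CHG, and 72 and 35 in CG. For genes failing the body limits the shares were 10.1% and 0.818% in CHH, 3.69% and 1.83% in CHG, and 2.88% and 2.08% in CG.

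**Figure D5:**
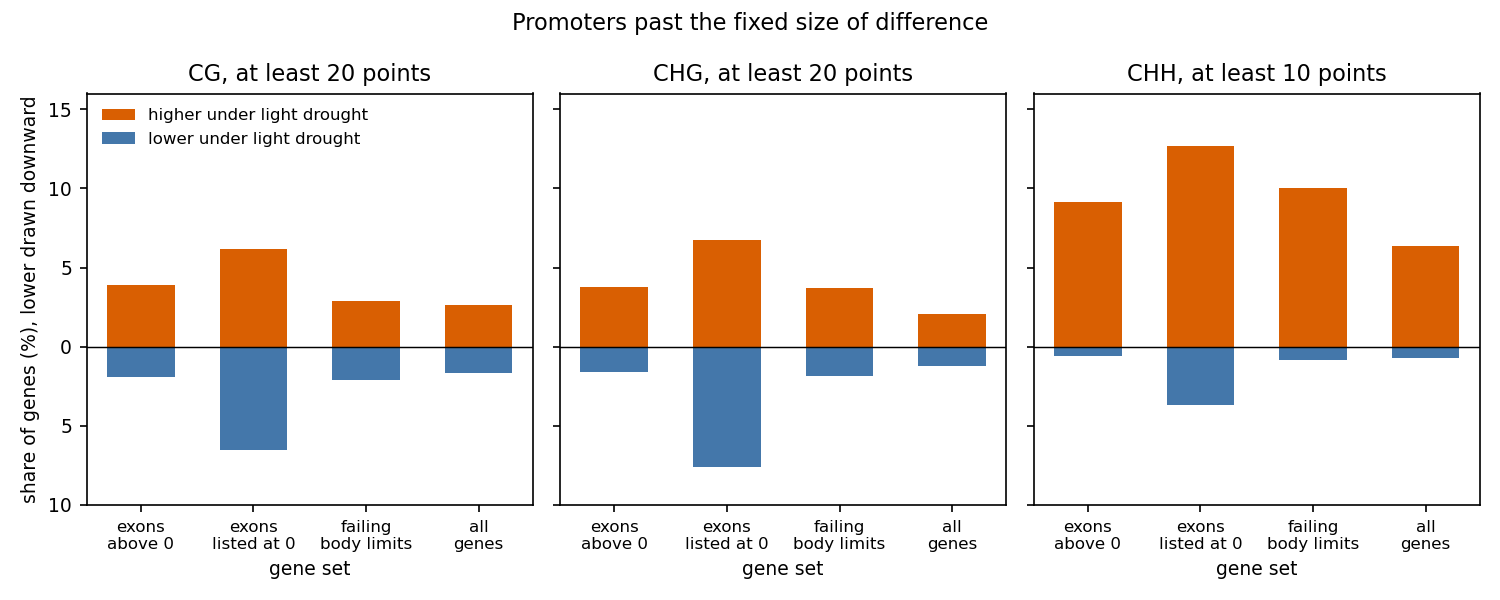
Share of genes in percent whose promoter was higher (upward) or lower (downward) in light drought shoots by at least 20 points (CG and CHG) or 10 points (CHH), for members with exons above 0 and with exons at 0, genes failing the body limits and all genes. Members with exons at 0 have the largest lower shares, at 6.54% in CG, 7.61% in CHG and 3.71% in CHH, while members with exons above 0 stand at 1.90%, 1.58% and 0.598%.

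The largest differences were between levels listed at or toward the ends of the scale. Cs8g11670 was listed at 0 in CG, CHG and CHH in light drought shoots, against 100%, 100% and 50% in normal water shoots, while its downstream CHG was 90.3% (light drought) and 88.4% (normal water). Cs4g15160 had 100% CG and 88.9% CHG in light drought shoots and 0 in both in normal water shoots. Cs8g06120 and orange1.1t05021 had 100% CHG in light drought shoots and 0 in normal water shoots, and CG at 0 in both libraries. Cs3g08590 was at 0 in all 3 contexts in light drought shoots, with 100% CG and 83.3% CHG in normal water shoots. All 5 had exons at 0, but Cs3g11000, with exons above 0, had 100% CG, 75.6% CHG and 19.5% CHH in light drought shoots and 0 in all 3 in normal water shoots. A promoter was at 0 for all cytosines only in light drought shoots in 16 members, and only in normal water shoots in 15. A level of exactly 0 or 100% in a library stood behind 46 of the 107 lower and 34 of the 138 higher CHG promoters. The tables do not say how many cytosines or reads such levels rest on.

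The other genes named by size were less uniform. Cs8g07170, orange1.1t02022 and Cs9g09570 had exons above 0, and Cs3g22430 and Cs9g13540 had exons at 0. In CG, Cs8g07170 had 100% in light drought shoots and 0 in normal water shoots, while its CHG was 0 (light drought) and 44.5% (normal water). Cs3g22430 had CG at 0 in light drought shoots and 100% in normal water shoots, with CHG at 63.6% (light drought) and 71.4% (normal water). In CHG, orange1.1t02022 had 100% in light drought shoots and 6.67% in normal water shoots, with CG at 85.4% (light drought) and 84.9% (normal water). Its CHH was 45.2% (light drought) and 27.6% (normal water), so CHG and CHH were higher together there while CG differed by under 1 point. Cs9g09570 had CHG at 0 in light drought shoots and 100% in normal water shoots, with CG at 45.2% (light drought) and 44.8% (normal water). Cs9g13540 also had CHG at 0 (light drought) and 100% (normal water), with CHH higher at 38.1% (light drought) and 21.9% (normal water).

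In CHH, the highest differences were in orange1.1t04762, at 53.3% in light drought shoots and 0 in normal water shoots, Cs8g08070, at 77.1% (light drought) and 24.8% (normal water), and orange1.1t05570, at 48.3% (light drought) and 0 (normal water). Of these only Cs8g08070 was listed above 0 in CHG and CHH in both libraries, with CHG at 84.5% (light drought) and 77.7% (normal water). The lowest were Cs7g12270, at 3.33% in light drought shoots and 70.2% in normal water shoots, Cs8g11670, given above, and Cs5g14570, at 0 (light drought) and 48.0% (normal water). Among members with exons above 0, the 3 highest and 3 lowest CHH differences were added after the values were seen. The highest was in Cs9g09530, with 40.8% CHH and 83.3% CHG in light drought shoots and 0 in both contexts in normal water shoots. Next, Cs5g20380 had 43.6% CHH in light drought shoots and 2.88% in normal water shoots, with CHG at 65% (light drought) and 96.1% (normal water). In orange1.1t00663 CHH was 46.3% (light drought) and 11.1% (normal water), with CHG at 70.0% (light drought) and 80.0% (normal water). These last had more CHH and less CHG in light drought shoots, while Cs9g09530 had more of both. Of the lowest, Cs3g06060 and Cs9g11360 were at 0 in CHH and CHG in light drought shoots. In normal water shoots Cs3g06060 had 30.8% CHH and 50.5% CHG, and Cs9g11360 had 20.8% CHH and 86.7% CHG. Cs8g10720 had less CHH and more CHG, with CHH at 13.8% (light drought) and 32.9% (normal water) and CHG at 80.0% (light drought) and 70.9% (normal water).

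Downstream flanks, which the rule did not use, were methylated in part of the members. CHG downstream averaged at least 20% in 1021 members, or 35.6%, against 30.2% of all genes, 26.9% of the genes with a low CHG promoter and 46.4% of the genes that failed the body limits. It averaged 22.0% in light drought shoots and 20.8% in normal water shoots, with medians of 3.98% (light drought) and 3.12% (normal water). The flank was at 0 for all cytosines in both libraries in 740 members, or 25.8%, close to the 26.7% of all genes. The 3 highest downstream flanks were in Cs5g24910 and orange1.1t05350, at 100% CHG in both libraries, and Cs5g18520, at 97.5% in light drought shoots and 100% in normal water shoots. All 3 had exons at 0, so they do not show low exon levels between 2 methylated flanks. Of the 1839 members with exons above 0, 586, or 31.9%, had CHG downstream of at least 20%. Cs2g30110 is such a gene, with downstream CHG at 70.8% (light drought) and 69.1% (normal water).

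Other members had a high promoter with CHG listed at 0 downstream. Among those with CHG downstream at 0 and the highest promoter, orange1.1t05210 had 100% promoter CHG in light drought shoots and 96.4% in normal water shoots, Cs7g03950 had 95.1% (light drought) and 100% (normal water), and Cs4g16890 had 96.4% (light drought) and 98.5% (normal water). The gene body of orange1.1t05210 had 33.3% CG in light drought shoots and 0 in normal water shoots. Cs7g03950 and Cs4g16890 were listed at 0 in all 3 contexts in exons, gene body and downstream in both libraries, which may be missing data. With exon and downstream CHH above 0, Cs3g26770 had 85.5% (light drought) and 86.0% (normal water) promoter CHG and 58.5% (light drought) and 54.4% (normal water) CHH, with CHG at 0 downstream and in the gene body, and CHH downstream at 0.36% (light drought) and 0.61% (normal water). Cs7g05790 had 84.5% (light drought) and 80.7% (normal water) promoter CHG, with CHH at 49.2% (light drought) and 36.5% (normal water). Both were chosen after their values were seen.

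Mean downstream differences pointed the same way as in promoters, and over all members the CHH difference was smaller. CHH downstream was 10.1% in light drought shoots and 8.16% in normal water shoots, 1.90 points higher (SD 5.87), with a median of 0.18 points against 0.07 points over all genes. CHG was 1.23 points higher and CG 1.66 points higher, and both medians were 0. In the 1021 members with CHG downstream of at least 20%, CHH there was 22.1% (light drought) and 18.4% (normal water). In these members the CHH difference was not smaller, at 3.71 points downstream and 3.27 points in the promoter. Past the fixed size, CHH downstream was higher in 145 members and lower in 18, or 5.06% and 0.628%, against 3.81% and 0.626% of all genes. CHG was higher in 60 and lower in 37, or 2.09% and 1.29%, against 1.5% and 0.977%. CG was higher in 107 and lower in 56, or 3.74% and 1.96%, against 3.67% and 1.61%. The CG shares and the lower CHH share were near the background.

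The authors' deposited tables of differentially methylated regions list short regions in promoters of the members. In CHH, 1352 members, or 47.2%, had at least 1 such region, against 29.1% of all genes and 51.1% of genes failing the body limits. In CHG the number was 80, or 2.79%, against 1.61% of all genes and 3.48% of genes failing the body limits. In CG it was 55, or 1.92%, against 1.24% and 1.88%. Light drought was the higher library in 2062 of the 2510 CHH regions and the lower in 448, so that 82.2% were higher against 82.4% of all CHH promoter regions. In CHG 51 of 90 regions were higher, or 56.7%, against 65%, and in CG 33 of 58, or 56.9%, against 63.7%. The direction is taken as light drought minus normal water, as the tables' name has it. The sign equalled that of the promoter level in 2069 of 2554 pairs of region and gene in CHH, 78 of 92 in CHG and 49 of 59 in CG, from the same reads.

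Regions were spread unevenly among the members. Of the 1352 with CHH regions, 718 had 1 region and 68 had at least 5, with at most 16 in 1 gene. In 974 of them each listed CHH region was higher in light drought shoots, in 148 each was lower, and 230 had regions of both directions. In 1473 members no promoter region was listed in any context, and 7 had regions in all 3 contexts. The promoters of several genes shared 263 of the CHH regions, 16 of the CHG regions and 7 of the CG regions. Exonic regions were rare, as the rule makes likely, but 26 CG regions were listed in exons of 24 members, or 0.838%, against 2.74% of all genes. Of these 23 were higher in light drought shoots and 3 lower, while 71.7% of the 889 exonic CG regions of all genes were higher. Genes with the same body limits and a low CHG promoter had such regions in 0.847%, with 41 of 52 regions higher, or 78.8%. The rule limits exon CG in both sets, so neither the share nor the direction is called particular to the members.

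The largest listed promoter regions were all higher in light drought shoots. In the authors' deposited table none of those named in this paragraph and the next had a corrected p under 0.05. In the authors' deposited table for CG, orange1.1t02243 has a region of 10 cytosines on unplaced sequence at 34060791 to 34060839, and its difference of 53.4 points has a corrected p of 0.604. Its whole promoter had 51.3% CG in light drought shoots and 41.2% in normal water shoots, and it also holds 1 CHG and 5 CHH regions. The authors' deposited table gives Cs2g09240 a CG region on chromosome 2 at 6477729 to 6477796 with 52.9 points, and Cs4g17340 one on chromosome 4 at 17068761 to 17068859 with 45.6 points. In Cs2g09240 the promoter CG level was 38.7% (light drought) and 22.3% (normal water), while CHG was 25.8% (light drought) and 27.5% (normal water). In these genes the short listed region differed by more points than the promoter that holds it. They were picked for the largest listed CG regions, so the choice makes this likely.

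In CHG the authors' deposited table has the largest promoter region of a member at Cs9g08970, on chromosome 9 at 6146132 to 6146207, where a difference of 47.3 points has a corrected p of 1. That gene's promoter CHG was 38.8% in light drought shoots and 27.2% in normal water shoots, and its downstream CHG was 57.8% (light drought) and 5.55% (normal water), so both flanks were higher. Next in the authors' deposited table come Cs2g16870, with 42.7 points on chromosome 2 at 13685115 to 13685240, and Cs7g09810, with 40.1 points on chromosome 7 at 6304461 to 6304523. In both, promoter CHG was higher, at 33.6% and 32.3% in light drought shoots and 22.7% and 23.1% in normal water shoots. Promoter CG was lower in both, at 60.2% and 56.7% in light drought shoots and 63.7% and 64.8% in normal water shoots. In CHH the authors' deposited table has 59.3 points for orange1.1t01730, 57.2 for Cs7g23890 and 55.6 for Cs2g07730. The smallest corrected p of these 3 in the authors' deposited table is 0.861, for Cs2g07730. All 3 promoters were higher in CHH as a whole, at 17.0%, 13.7% and 23.4% in light drought shoots and 10.2%, 7.92% and 15.0% in normal water shoots.

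In the authors' deposited table a corrected p under 0.05 was given to 6 CHH regions in promoters of members, or 0.239%, against 0.364% of all CHH promoter regions. It was given to 0 in CG and CHG, against 0.563% of all CG and 0.443% of all CHG promoter regions. The smallest in the authors' deposited table was that of orange1.1t03957, with 44 cytosines on unplaced sequence at 61104929 to 61105070 and 45.2 points. On chromosome 5 the authors' deposited table has Cs5g28970, with 36.4 points at 31205810 to 31205972, and Cs5g22810, with 22.5 points at 25527084 to 25527215. In the same authors' deposited table orange1.1t05967 and orange1.1t00033 have 31.6 and 31.5 points. The only lower region of the 6 is that of Cs4g05900, with -15.5 points in the authors' deposited table. With 1 library per condition these p-values hold no spread between trees. The sources used here do not name the genome build behind these coordinates.

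Members lay on all 9 numbered chromosomes and on unplaced sequence. They made up 7.65% of the listed genes on chromosome 4 and 10.9% on chromosome 9, the ends of the range over numbered chromosomes, and 13.5% of the genes on unplaced sequence. Of the 777 unplaced members 57.1% had exons at 0, against 21.1 to 36.8% on the numbered chromosomes. The CHH promoter difference was positive on each, from 3.30 points on chromosome 3 to 4.05 points on chromosome 4. On unplaced sequence it was 3.39 points, while the CG and CHG differences there were 0.198 and 0.0785 points.

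Neighbouring genes were read from the order of identifiers on the numbered chromosomes, which followed the starts of listed regions on each (Spearman rho of 1). Of the 2087 placed members, 633, or 30.3%, lay next to a gene with an average exon CHG level of at least 20%. The share was 22.0% over all placed genes, 16.8% over those with the same body limits and a low CHG promoter, and 37.8% over those failing the body limits. Among placed members with exons above 0 it was 26.5%, and among those with exons at 0 it was 40.3%. Members next to such a gene had promoter CHG at 54.8% in light drought shoots and 53.9% in normal water shoots, and the other placed members at 46.8% (light drought) and 43.5% (normal water). CHH differed by 3.08 points in the first and 3.80 points in the second. Members were next to each other in 301 pairs, of which 7 had promoter CHG levels within 0.5 points of each other in both libraries. Distances between genes were not analysed here.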

How the data were processed

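Shoots of Citrus unshiu were profiled in 2 bisulfite libraries, 1 per condition. Per the labels' protocols, bisulfite conversion used the Methylation-Gold kit and library preparation the Accel-NGS Methyl-Seq kit, and the tools listed, with no role, in the submitters' processing notes are bedtools 2.26.0, Bismark 0.20.1 and SAMtools 1.4. The sources used here do not name the genome build, the annotation, the promoter length, the coverage filter or the region caller. Deposited by the authors were levels in percent per gene feature and context, with no depth, so no interval or detection floor was computed. The authors' deposited region tables give a difference (a signed score in points), p-values and the number of cytosines. Their 6 columns of group levels have names that match no label and were not used.

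The 29073 genes in both tables (29138 under light drought, 29131 under normal water) were used. Differences are light drought minus normal water, and SDs are over genes. With 1 library per group no test was made. Starts are printed counted from 1. None of the gene identifiers matched the reference table (0), so no names or sequences are given. Members, lists and sizes were chosen with earlier results of these data known. Genes were named by rule: the 3 highest or lowest members by promoter level, by difference in each context, by distance to the limits, by downstream CHG, by exon CHH and by listed region. Further genes with exons above 0 were added after the values were seen. The rule, the sizes and the region join were tested on simulated data. Alternatives changed the limits of the rule, the sizes, the mean to a median, the centre of the differences and the regions kept. Figures were drawn with matplotlib 3.10.9, and values were computed with pandas 2.3.3 and numpy 2.4.6 under Python 3.11.15.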

Additional observations from a re-analysis of the deposited data

How the results depend on the processing

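No paired analysis was possible because there is a single library (1) on each side, and for the same reason none was left out. With neither replicates nor depth, a shift of over 1.5 times was taken as a move. This was so for 48 of 129 recalculated values, and 0 changed sign; a CHG minimum of 30%, an excess of CHG over CHH of 5 points and an exon limit of 2% moved none. Requiring the rule in each library left 83 CG promoters higher and 60 lower, 54 CHG promoters higher and 37 lower, and 193 CHH promoters higher and 28 lower. Requiring exon CG above 0 in both left 620 genes, with differences of 2.58 points in CG and 3.17 in CHG and counts (CG, CHG, CHH; higher and lower) of 19 and 9, 20 and 6, and 44 and 2. Requiring an exon level above 0 in at least 1 library, an alternative added after seeing the data, left 1839 genes, with 2.59 points in CG, 3.31 in CHG, and counts of 72 and 35, 69 and 29, and 168 and 11. Medians of downstream differences were 0 in CG, 0 in CHG and 0.18 in CHH. Less the median difference of all genes above 0 in both libraries (1.09 points in CG, 1 in CHG, 1.49 in CHH), promoter differences were 0.54, 0.94 and 2.04 points. With sizes of 10 points (5 in CHH) the counts became 438 and 258, 504 and 268, and 952 and 134. With 30 points (15 in CHH) they were 58 and 57, 69 and 69, and 120 and 29, so that in CG and CHG as many members were lower as higher or nearly so. Regions of at least 30 points (20 in CHH) were listed for 0.349% of members in CG, 0.244% in CHG and 30.1% in CHH, and those with a corrected p under 0.05 for 0, 0 and 0.209%. The cause of each change was not tested beyond the fewer genes or regions kept. The unknown depth limits all values, above all those of promoters at 0 or 100%.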
